A study of Mus musculus with 35 samples.

Results

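The 10 genes described here encode peptides of the arcuate feeding circuit, a convertase that cuts their precursors, and receptors. They are Agrp, Npy, Pomc, Cartpt, Pcsk1, Mc3r, Mc4r, Npy1r, Npy2r and Npy5r. They were chosen by name and make up 10 of the 49568 gene names in the count tables. All 10 passed the filter on low counts and were tested. The study sequenced polyA RNA of the dissected hypothalamus in 35 libraries from male B6/J mice. All mice were sampled at Zeitgeber time 16 (hours after lights-on), and fasted mice had been without food for the 16 h before. Control mice, which the series' design text calls wild type, gave 10 libraries from animals fed ad libitum and 10 from fasted ones. PER2-S662D mice gave 5 fed and 5 fasted libraries, and mice labelled Per2 ko (knockout) gave 5 libraries, all fasted. PER2 is a repressor of the circadian clock, and S662D exchanges a phosphorylatable serine for aspartate. The ages of the mice, the type of each allele and the promoter that drives S662D are not given in the sources used here. Nothing in the labels beyond the sample titles says that libraries came from separate animals, so p-values measure the spread between these samples.

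Opposed groups of neurons in the arcuate nucleus set the drive to eat. Neurons that make AGRP and NPY are active in hunger. Neurons that make POMC, the precursor of alpha-MSH, and often CART, restrain eating. Alpha-MSH activates the melanocortin receptors MC3R and MC4R and AGRP opposes it there, while NPY acts through receptors of its own. Fasting is known to raise Agrp and Npy mRNA and to lower Pomc mRNA in the arcuate nucleus.

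Depth was 17959586 to 37027342 assigned counts per library, with the deepest libraries in the S662D groups, and mitochondrial genes took 6.24% to 9.08% of counts. Library numbers in the file headers run from 121 to 130 for control replicates 1 to 5, from 136 to 140 for the labelled knockout, from 141 to 150 for control replicates 6 to 10 and from 171 to 180 for S662D, so the effects of genotype and of library range cannot be told apart. Of the 10 S662D libraries, 6 (replicates 2, 3 and 4 of both feeding states) carry an additional final digit in that number, whose meaning is not stated. Per2 itself ranged from 25.9 to 33.1 CPM in the 20 control libraries, from 16.4 to 22.7 in the 10 S662D libraries and from 28.2 to 33.4 in the 5 labelled knockout libraries. The count of the targeted gene was therefore not lower under the knockout label, and a count summed over a whole gene does not show whether a deleted part is missing; the group is called the labelled knockout throughout. CPM is the count relative to the TMM-scaled library size. Of the tissue markers, the 8 hypothalamic genes summed to 496 to 731.1 CPM. Choroid plexus genes (Ttr and 4 others) summed to between 18.3 and 1537 CPM, and 5 libraries exceeded 500 CPM: fed control 2, fasted controls 8 and 9, and fed S662D 2 and 5.

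The precursor and receptor genes differed widely in level (log-axis plot of level per kb of exon). Per kb of exon and averaged over all 35 libraries, Cartpt stood highest at 48.0 ± 10.7 CPM per kb (SD). It was followed by Npy at 20.0 ± 4.71, Pomc at 18.5 ± 3.54 and Pcsk1, the prohormone convertase that makes the first cuts in POMC, at 10.9 ± 1.33. The receptors were lower, with Npy1r at 5.26 ± 0.921, Npy2r at 4.11 ± 0.680, Mc3r at 1.97 ± 0.316, Npy5r at 1.95 ± 0.344 and Mc4r last at 0.998 ± 0.167. Agrp, at 3.68 ± 1.16 CPM per kb, lay among the receptors. That value divides by all 1013 exon bases of its gene model. Of these, 352 (34.7%) lie beyond its compact cluster of exons, so the place of Agrp in this order depends on them. Some neighbours in this order did not separate: Npy exceeded Pomc in 16 of 35 libraries, Npy2r exceeded Agrp in 24 and Mc3r exceeded Npy5r in 20. Npy1r exceeded Npy2r in 29 and Pomc exceeded Pcsk1 in 32, while the other 4 neighbouring pairs kept their order in all 35.

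**Figure D1:**
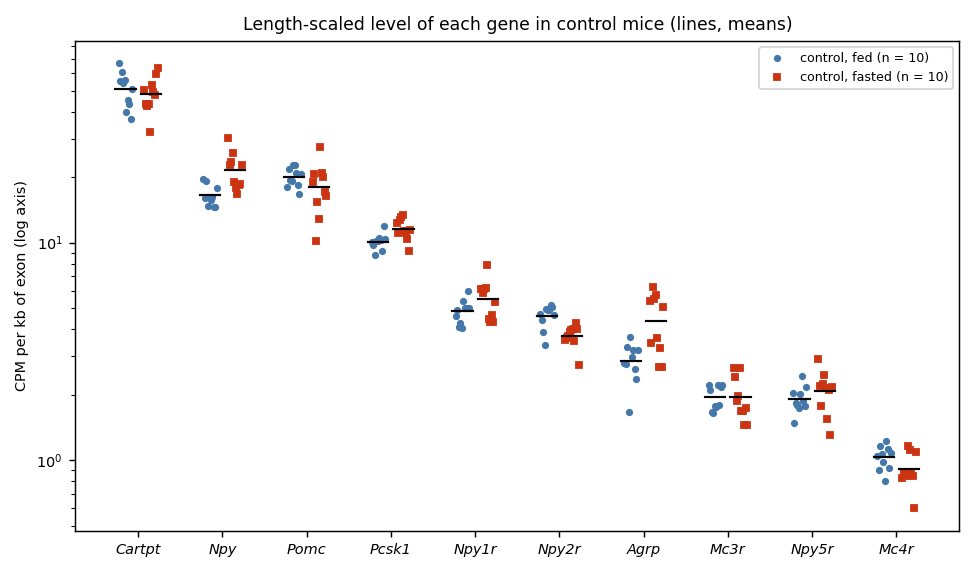
Level of each of the 10 genes in the fed (blue circles, n = 10) and fasted (red squares, n = 10) control libraries, in CPM per kb of exon on a log axis, with black lines at the group means. Cartpt lies at the top and Mc4r at the bottom, and for Agrp and Npy the fasted mean lies above the fed mean.

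Fasting in control mice was followed by higher Agrp, Npy and Pcsk1 and by lower Npy2r, while the other 6 genes did not pass the test. These are 4 of 10 genes called at an adjusted p below 0.05, against 3.88% of the 18063 genes tested in this comparison, 2.2% called higher and 1.68% called lower. The median log2 fold change was 0.06 over the 10 genes and 0.0023 over all genes tested. P-values, here and in what follows, come from the quasi-likelihood test of edgeR, adjusted by Benjamini-Hochberg over all genes tested. In whole hypothalamus, fewer cells of a type and less RNA per cell cannot be told apart. The endothelial markers Cldn5, Flt1 and Pecam1 moved with feeding: they summed to 101.7 to 124.1 CPM in fed and 83.74 to 99.65 CPM in fasted controls, without overlap. The 3 microglial markers summed to 107.6 to 133.1 CPM fed and 93.07 to 121.6 CPM fasted, and the 3 neuronal markers to 2380 to 2615 and 2481 to 2697 CPM. Their part in the results for the feeding genes was not tested.

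Agrp encodes the endogenous antagonist of the melanocortin receptors. Across the 10 fed controls it had its lowest value at 1.69, its median at 2.92 and its highest value at 3.71 CPM, and across the 10 fasted controls these were 2.71, 4.41 and 6.30. The groups overlapped: the lowest fasted libraries lay within the fed range, and the 4 highest fasted values all came from replicates 1 to 5. The log2 fold change was 0.61 ± 0.16 (SE), or 1.52-fold, with an adjusted p of 0.0196 (edgeR). That call was lost without fasted control 3, with no filter on low counts, by limma-voom and within replicates 6 to 10 alone. Agrp rested on 31 to 156 counts per library, the lowest support among the peptides.

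The Agrp gene model in the authors' tables spans chr8:105566698-105637393 on the minus strand (mm10). Of its 1013 exon bases, 661 lie in the compact cluster of exons that ends at 105568298 and 352 (34.7%) lie beyond it. Of those distant bases, 114 (11.25% of the exon bases) overlap exons of Ctcf on the opposite strand and of Gm5914. Ctcf averaged 56.3 CPM. Fragments were counted without strand and, by the options in the file headers, a fragment that touches exons of several genes counts for none of them. What the remaining distant bases add to the Agrp count was not tested, and Agrp values are uncertain to that extent. The other 9 genes had no exon base shared with another gene.

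Npy encodes neuropeptide Y, which AGRP neurons also release and which stimulates feeding (chr6:49822710-49829507, plus strand, mm10). Whole hypothalamus does not show which cells the Npy RNA came from. In fed controls its lowest value, median and highest value were 8.26, 9.12 and 11.1 CPM, and in fasted controls 9.43, 11.8 and 17.1. All fasted libraries exceeded the fed median, and 4 of the 5 highest were fasted replicates 1 to 4. The log2 fold change was 0.39 ± 0.09, or 1.31-fold, with an adjusted p of 0.00263 (edgeR). It stayed called in each of the 20 fits that left out 1 control library, and was lost with replicates 6 to 10 alone (0.26, adjusted p = 0.169).

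Pcsk1 encodes prohormone convertase 1/3, which cleaves POMC, proNPY and other precursors (chr13:75089826-75132498, plus strand, mm10). Fed controls had a lowest value, median and highest value of 28.3, 32.95 and 38.5 CPM, and fasted controls of 29.6, 36.9 and 43.4. The rise was small, at 0.20 ± 0.05 on the log2 scale (1.15-fold, adjusted p = 0.0239, edgeR), and the groups overlapped. It stayed called in 14 of 20 fits that left out 1 library. It was lost without fed controls 3 or 8 and without fasted controls 1, 3, 4 or 5, where the log2 fold change still lay between 0.17 and 0.23, and with replicates 6 to 10 alone, where it was 0.03 (adjusted p = 0.843).

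Npy2r encodes the Y2 receptor, through which NPY neurons restrain their own release (chr3:82538383-82548084, minus strand, mm10). Fed controls had a lowest value, median and highest value of 11.5, 16.2 and 17.5 CPM, and fasted controls of 9.26, 12.9 and 14.5. Only fed controls 3 and 4 fell within the fasted range. Its log2 fold change was -0.30 ± 0.08, or 0.810-fold, with an adjusted p of 0.01004 (edgeR), and it stayed called in all 20 fits that left out 1 library. With replicates 1 to 5 alone it was -0.19 (adjusted p = 0.279) and not called.

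The remaining genes did not pass the test for fasting in controls. Pomc ranged from 16.8 to 23.0 CPM in fed and from 10.3 to 27.9 CPM in fasted controls, with a log2 fold change of -0.15 (95% confidence interval -0.41 to 0.10, adjusted p = 0.690). The pituitary also makes Pomc in bulk; here 9 pituitary marker genes summed to 2.10 to 7.53 CPM over all libraries, 8 of them averaged under 1 CPM, and the growth hormone gene Gh was at 0 in all 20 controls. Cartpt gave -0.07 (-0.35 to 0.21) and Mc3r -0.0004 (-0.21 to 0.21). Mc4r, whose loss causes severe obesity, lay between 1.65 and 3.69 CPM in all 35 libraries and gave -0.18 (-0.42 to 0.05). Npy5r gave 0.12 (-0.09 to 0.34). Npy1r gave 0.19 (0.01 to 0.37), with an adjusted p of 0.321.

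**Figure D2:**
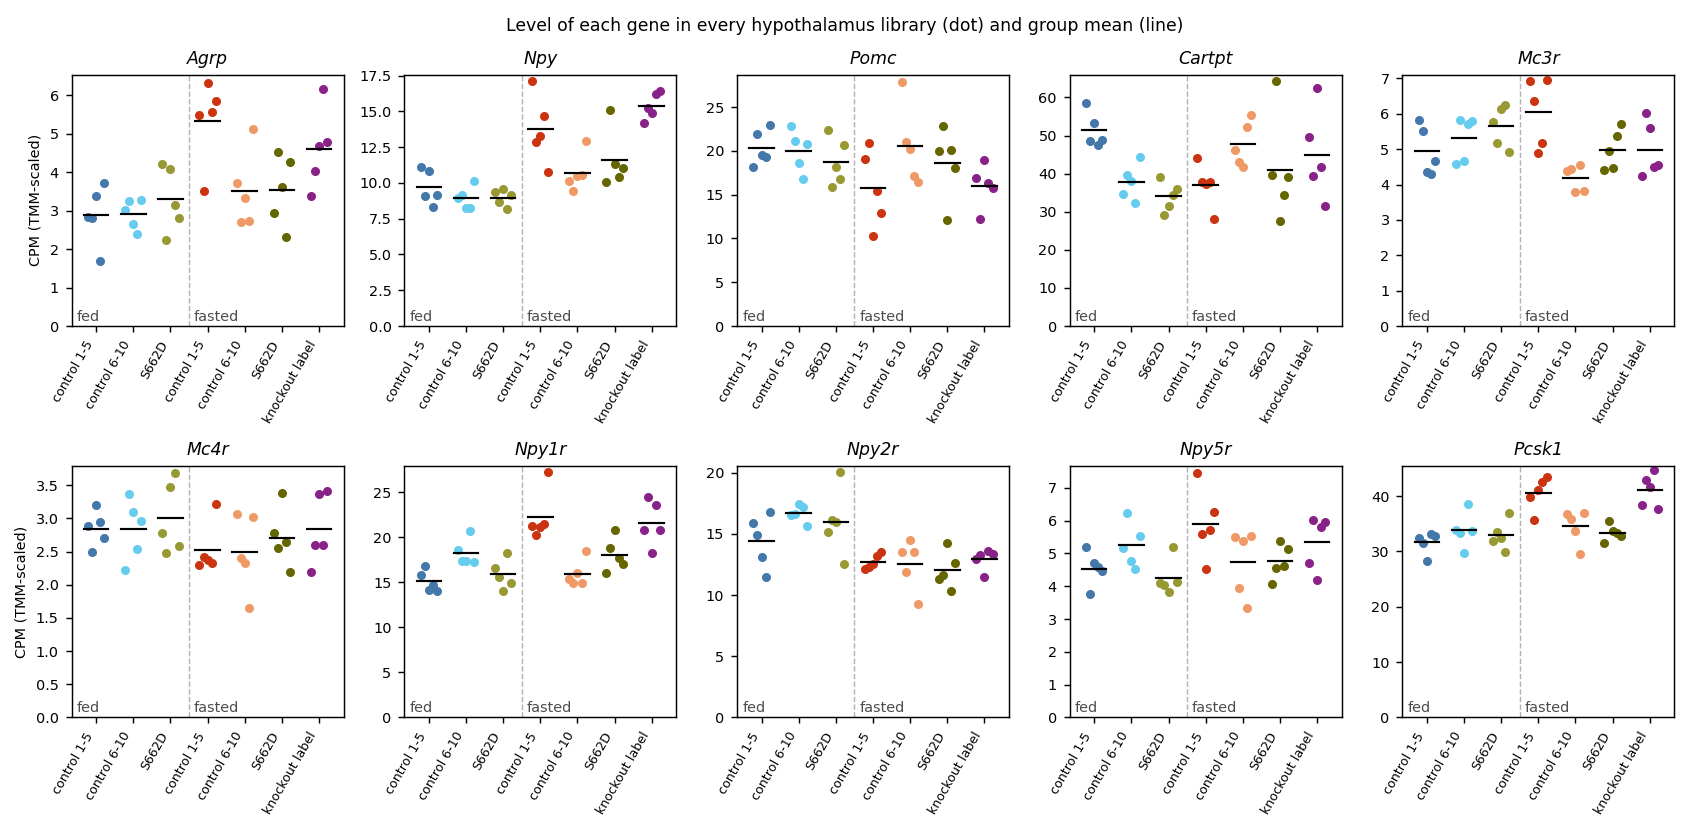
CPM of each gene (panels, y axes from 0) in every library (dots) with group means (lines); the dashed line separates fed from fasted groups, and controls are split into replicates 1 to 5 and 6 to 10. The mean of fasted controls 1 to 5 lies above that of 6 to 10 for all genes but Pomc and Cartpt, narrowly for Npy2r and Mc4r. The fasted sets do not overlap for Npy1r and Mc3r, as for 7.58% of all genes. All fed controls 1 to 5 lie above the other fed controls for Cartpt and below them for Npy1r. Such separation of the fed sets held for 3.88% of all genes.

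The 8 genes that matched a RefSeq promoter window (build GRCm38.p6) were searched for 5 motifs on both strands, from 250 bases before to 50 bases after the start. The windows shown, from 151 to 32 bases before the start, belong to the 3 genes called on fasting that have a window, Pcsk1, Npy and Npy2r, and to Cartpt, whose response differed most between the control sets described further on. Capitals mark the motif letters found, and sequences read 5′ to 3′ along the gene.
Pcsk1 (chr13:75089706-75089825, plus strand): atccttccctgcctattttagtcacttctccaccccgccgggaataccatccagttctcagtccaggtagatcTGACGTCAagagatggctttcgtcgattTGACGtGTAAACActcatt
Cartpt (chr13:99900715-99900834, minus strand): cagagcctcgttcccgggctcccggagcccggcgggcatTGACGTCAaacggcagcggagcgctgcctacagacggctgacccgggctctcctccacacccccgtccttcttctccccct
Npy (chr6:49822559-49822678, plus strand): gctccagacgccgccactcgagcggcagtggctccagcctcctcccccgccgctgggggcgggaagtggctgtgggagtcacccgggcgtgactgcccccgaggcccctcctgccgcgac
Npy2r (chr3:82548117-82548236, minus strand): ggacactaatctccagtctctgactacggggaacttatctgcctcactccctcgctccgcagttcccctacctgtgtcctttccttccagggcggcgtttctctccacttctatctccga

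Pcsk1 and Cartpt both carry the short cyclic AMP response element TGACG on both strands, overlapping so that the letters read TGACGTCA. These 8 letters, picked after the windows were seen, occurred in 1.79% of the 32851 RefSeq promoter windows, while TGACG alone occurred in 20.8%. Pcsk1 has a further TGACG and, beside it, the FOXO letters GTAAACA, found in 3.6% of windows. Of the other motifs, the E-box CACGTG (7.2% of windows) was found in Npy5r alone and the ROR core AGGTCA (16.3%) in Pomc alone, while the STAT letters TTCNNNGAA (8.3%) were in none of the 8. Mc3r has a TGACG after its start, and Npy, Npy1r and Npy2r hold none of the 5 motifs in these windows.

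Within S662D mice, 1 of the 10 genes passed the test for fasting, again Npy2r, against 2.64% of all genes tested, with 0.83% called lower. Fed S662D libraries held 15.1, 16.1, 16.0, 20.0 and 12.5 CPM of Npy2r in replicates 1 to 5, and fasted ones 11.3, 11.7, 14.2, 10.3 and 12.6. The groups overlapped only through fed replicate 5. Npy2r had a log2 fold change of -0.41 ± 0.10, with an adjusted p of 0.0159 (edgeR). The call was lost without fed replicate 4 or fasted replicate 4, and in the 4 S662D libraries without the additional digit.

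Npy in S662D mice read 9.36, 8.64, 9.55, 8.21 and 9.14 CPM when fed and 10.1, 15.1, 11.3, 10.4 and 11.1 CPM when fasted. Every fasted library exceeded every fed one, which held for 3.3% of all genes in this comparison. Its log2 fold change of 0.38 ± 0.12 had an adjusted p of 0.0786 (edgeR) and did not pass. Agrp read 4.20, 2.24, 4.09, 3.15 and 2.79 CPM in fed and 2.95, 4.52, 3.61, 2.31 and 4.27 CPM in fasted S662D mice, and the groups lay over each other. Its log2 fold change was 0.13 (95% confidence interval -0.31 to 0.58). Fasted S662D replicate 2 was the highest of its group for Agrp, Npy, Pomc and Cartpt alike.

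The difference between the 2 genotypes' responses was tested as an interaction. None of the 10 genes passed, and none had an unadjusted p below 0.05; over all genes tested 0% were called by edgeR, limma-voom or DESeq2, and 6.37% had an unadjusted p below 0.05. For Agrp the response of S662D minus that of controls was -0.47 (95% confidence interval -1.02 to 0.08, adjusted p = 0.797), and for Pcsk1 it was -0.18 (-0.37 to 0.01, adjusted p = 0.777). For Npy it was -0.01 (-0.31 to 0.28) and for Npy2r -0.11 (-0.37 to 0.15). Against controls 1 to 5 alone, the Pcsk1 difference was -0.34 with an adjusted p of 0.0377; against controls 6 to 10 alone it was -0.01 with an adjusted p of 0.998. Pcsk1 was the 1 gene of the 10 called with the first set, where 2.73% of all genes were called, against 0 of the 10 and 0% of all genes with the second.

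**Figure D3:**
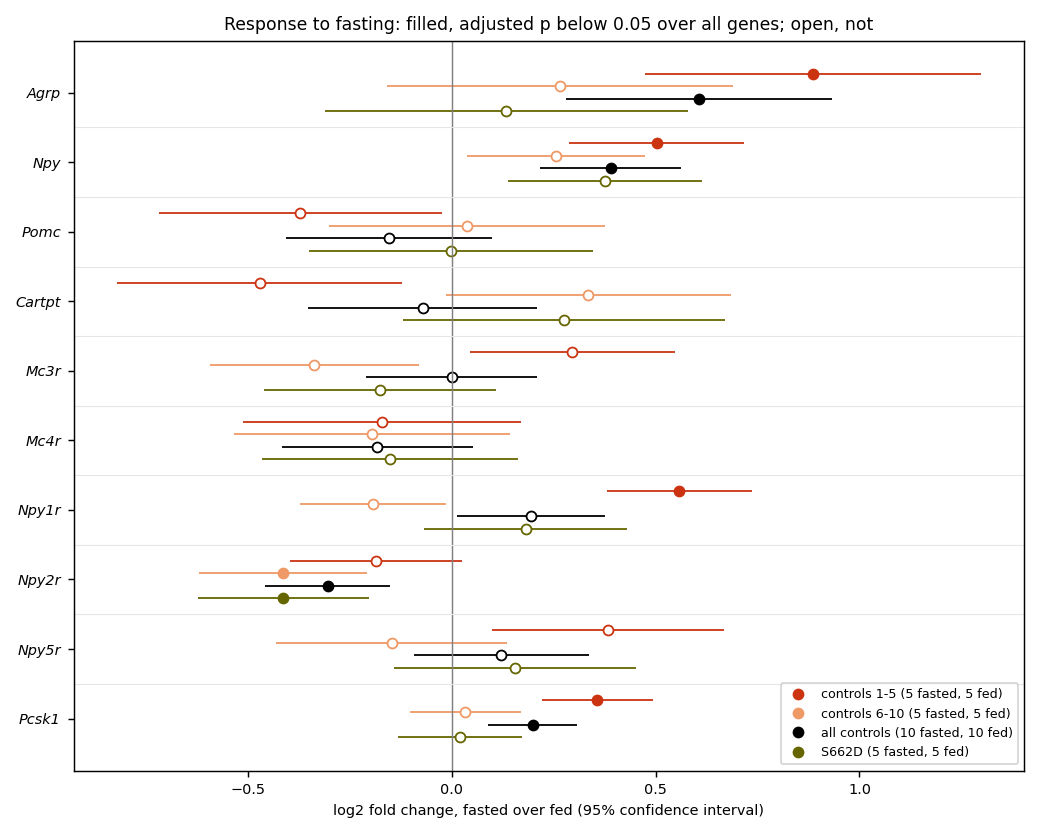
Log2 fold change of fasted over fed (x axis) with its 95% confidence interval for each gene in controls 1 to 5, controls 6 to 10, all controls and S662D; filled points have an adjusted p below 0.05 over all genes tested. Agrp, Npy, Npy1r and Pcsk1 are filled in controls 1 to 5, and Npy2r is filled in controls 6 to 10, all controls and S662D; the pooled controls share their libraries with both sets.

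Control replicates 1 to 5 and 6 to 10 gave different responses to fasting for Npy1r, Mc3r, Pcsk1 and Cartpt. Each set held 5 fed and 5 fasted libraries, and the test of the difference called these 4 of the 10 genes, against 10.6% of all genes tested, 5.99% as positive and 4.63% as negative differences. The sets also differ in library range, and nothing else about them is given. Of 3 general fasting genes, Sgk1, a corticosteroid-induced kinase gene, rose by 1.86 on the log2 scale in the first set and by 1.88 in the second. Fkbp5 rose by 1.31 and 0.68 (adjusted p of the difference 0.0714) and Pdk4 by 1.37 and 0.88 (0.1305).

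In controls 1 to 5 fasting was followed by higher Agrp, Npy, Npy1r and Pcsk1, 4 of 10 genes, where 8.28% of all genes were called, 3.9% of all genes as higher. Agrp went from 2.83, 2.81, 3.37, 1.69 and 3.71 CPM in fed replicates 1 to 5 to 5.48, 3.50, 6.30, 5.55 and 5.85 CPM in fasted ones. All fasted libraries but replicate 2 exceeded every fed one. The log2 fold change was 0.89 ± 0.20 (1.85-fold, adjusted p = 0.00424, edgeR). Npy went from 11.1, 9.07, 10.8, 8.35 and 9.17 CPM to 17.1, 12.9, 13.3, 14.7 and 10.8 CPM, and only fasted replicate 5 fell within the fed range. Its log2 fold change was 0.50 ± 0.11 (adjusted p = 0.00158, edgeR).

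Npy1r encodes the Y1 receptor, one of the receptors through which NPY drives feeding (chr8:66697192-66706792, plus strand, mm10). Of the 50-base words in its exons, 2.84% also occur in other genes, so some of its reads could be shared. Fed controls 1 to 5 held 15.8, 16.9, 14.1, 14.7 and 14.1 CPM and fasted ones 21.2, 20.3, 21.1, 21.4 and 27.3 CPM, with no overlap. Its log2 fold change was 0.56 ± 0.09 (1.47-fold, adjusted p = 3.1e-05, edgeR). Fed controls 6 to 10 held 18.6, 17.3, 17.3, 20.7 and 17.3 CPM and fasted ones 15.4, 14.95, 16.1, 14.9 and 18.5 CPM, so there the fasted libraries were mostly the lower ones, with a log2 fold change of -0.19 (95% confidence interval -0.37 to -0.02, adjusted p = 0.213). The response of the second set minus that of the first was -0.75 ± 0.12 (adjusted p = 0.00198, edgeR).

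Pcsk1 in controls 1 to 5 read 32.5, 31.5, 28.3, 33.1 and 32.8 CPM when fed and 39.8, 35.8, 41.0, 42.5 and 43.4 CPM when fasted, again with no overlap. The log2 fold change was 0.36 ± 0.07 (adjusted p = 0.000424, edgeR). Non-overlap between fed and fasted libraries of the first set, seen for Npy1r, Pcsk1 and Cartpt, held for 9.72% of all genes. In controls 6 to 10 the Pcsk1 log2 fold change was 0.03 (-0.10 to 0.17), and the difference between the sets was -0.32 ± 0.10 (adjusted p = 0.0255, edgeR).

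Cartpt encodes the precursor of CART, a peptide that restrains eating when given into the brain and that many hypothalamic neurons outside the arcuate nucleus also make (chr13:99898484-99900683, minus strand, mm10). Fed controls 1 to 5 held 58.6, 48.6, 53.2, 47.5 and 48.8 CPM and fasted ones 44.0, 37.8, 37.3, 37.7 and 28.1 CPM. All fed libraries of this set exceeded all fasted ones, and the log2 fold change of -0.47 ± 0.17 had an adjusted p of 0.0834 (edgeR). It was called by limma-voom (adjusted p = 0.0417), where 7.77% of all genes were called. With only the groups compared it was called as well (adjusted p = 0.00652, edgeR), where 15% of all genes were. With each replicate number fitted as a block it was also called, where 11.5% of all genes were. In controls 6 to 10 fed libraries held 34.7, 39.7, 38.1, 32.3 and 44.4 CPM and fasted ones 46.3, 42.9, 41.6, 52.3 and 55.5 CPM. There the fasted libraries lay higher, with a log2 fold change of 0.33 ± 0.17 (adjusted p = 0.276, edgeR). With the replicate block this rise was called (adjusted p = 0.0170, edgeR), where 4.5% of all genes were. The difference between the sets was 0.81 ± 0.24 (adjusted p = 0.0314, edgeR).

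Npy5r, the Y5 receptor gene, lies beside Npy1r in the opposite orientation (chr8:66679965-66688128, minus strand, mm10), with 9063 bases between them. Its fed controls 1 to 5 ranged from 3.76 to 5.19 CPM and its fasted ones from 4.52 to 7.47 CPM, overlapping, for a log2 fold change of 0.38 ± 0.14 (adjusted p = 0.0799, edgeR). In controls 6 to 10 it was -0.15 ± 0.14, and the difference between the sets was -0.53 ± 0.20 (adjusted p = 0.0771, edgeR). Npy5r therefore did not pass in any of these tests.

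Mc3r encodes the melanocortin 3 receptor, which the AGRP neurons themselves carry (chr2:172248492-172251114, plus strand, mm10). Fed and fasted controls 1 to 5 ranged from 4.31 to 5.82 and from 4.90 to 6.95 CPM. In controls 6 to 10 fed libraries held 4.59, 5.81, 4.68, 5.71 and 5.79 CPM and fasted ones 4.395, 4.43, 3.78, 4.56 and 3.82 CPM, with every fasted library below every fed one. Neither response passed alone (adjusted p = 0.131 and 0.128), and their difference was -0.63 ± 0.18 (adjusted p = 0.0199, edgeR).

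In controls 6 to 10, Npy2r alone passed the test for fasting, 1 of 10 genes where 3.04% of all genes were called, 1.36% of all genes as lower. Fed libraries held 16.6, 16.6, 17.5, 17.2 and 15.7 CPM of Npy2r and fasted ones 13.5, 11.9, 14.5, 13.5 and 9.26 CPM, with no overlap, which for Npy2r and Mc3r compares with 5.95% of all genes. This gave a log2 fold change of -0.41 ± 0.10 (adjusted p = 0.0172, edgeR). In controls 1 to 5 it was -0.19 ± 0.10 (adjusted p = 0.278), and the difference between the sets, -0.23 (-0.52 to 0.07), did not pass. Agrp and Npy did not pass in controls 6 to 10, at 0.27 (-0.16 to 0.69) and 0.26 (0.04 to 0.47); for them, too, the difference between sets did not pass (-0.62, adjusted p = 0.170, and -0.25, adjusted p = 0.313).

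The fed sets and the fasted sets were also compared directly. Among fed controls none of the 10 genes passed, with 0% of all genes called by edgeR, 13.5% at an unadjusted p below 0.05, 0 genes called by limma-voom and 97 by DESeq2. Cartpt was lower in set 6 to 10 by 0.44 and Npy1r higher by 0.27 on the log2 scale, each without overlap, which held for 3.88% of genes. Among fasted controls Npy1r (-0.48), Mc3r (-0.53), Npy (-0.36) and Pcsk1 (-0.23) were lower in set 6 to 10, 4 of 10 genes against 6.02% of all genes, with 2.93% called lower. For Npy1r and Mc3r the sets did not overlap, which held for 7.58% of genes. Agrp gave -0.61 with an adjusted p of 0.0579.

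Markers of other tissue and cell types moved with the sets. Fasted controls 8 and 9 held over 500 CPM of choroid plexus genes, and without the 5 libraries above that level none of the 4 genes passed between fasted sets. That cut takes fasted controls 8 and 9 out of set 6 to 10, so this test had fewer libraries. Whether the calls were lost through that was not tested. Npy1r then gave -0.45 (adjusted p = 0.0815) in place of -0.48. Mc3r gave -0.52 (adjusted p = 0.0987) in place of -0.53, and over all genes 0 were called in place of 1088. Of the differences in response, Npy1r (-0.76) and Mc3r (-0.67) still passed without them, while Cartpt (0.84, adjusted p = 0.0771) and Pcsk1 (-0.24, adjusted p = 0.139) did not. The difference in response was called for the oligodendrocyte genes Mbp (0.38) and Mog (0.49). It was also called for Sim1 (-0.73) and Otp (-0.60), transcription factors of the paraventricular nucleus, and for the thalamic marker Tnnt1 (0.75). These genes were picked after their values were seen, Tnnt1 from 4 thalamic and Mbp and Mog from 3 oligodendrocyte markers. The 8 hypothalamic markers, Sim1 among them, had median sums of 613.9 CPM in fed controls 1 to 5 and 647.5 CPM in fed controls 6 to 10. In the fasted sets these were 632.2 and 627 CPM. The part of these marker genes in the results for the feeding genes was not tested.

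The mutants were compared with controls in the same feeding state, so both fasted mutants share the same 10 fasted controls. None of the 10 genes passed for S662D against control in the fed state, where 4.69% of all genes were called, or in the fasted state, where 5.57% were. By edgeR 1 of the 10 had an unadjusted p below 0.05 in each state, against 21% of all genes fed and 20.8% fasted, and limma-voom and DESeq2 called none. In the fed state that gene was Cartpt, at -0.39 (95% confidence interval -0.74 to -0.04, adjusted p = 0.178), and in the fasted state Pcsk1, at -0.17 (-0.30 to -0.04, adjusted p = 0.121). The other differences ran from -0.20 to 0.16 in the fed state and from -0.31 to 0.11 in the fasted state. Fasted Agrp gave -0.31 (-0.69 to 0.07). Without the 5 libraries high in choroid plexus genes, fasted Pcsk1 passed, at -0.23 with an adjusted p of 0.0270 (edgeR). In that setting 4.15% of all genes were called. That cut takes fasted controls 8 and 9 out of set 6 to 10. Pcsk1 averaged 34.6 CPM in fasted controls 6 to 10 and 40.5 CPM in fasted controls 1 to 5. Leaving out fasted control 9 alone also gave the call. Whether the call came through the changed mix of control sets was not tested.

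The labelled knockout gave no called gene against fasted controls, with 0.0277% of all genes called. By edgeR 2 of the 10 had an unadjusted p below 0.05, against 6.07% of all genes, and limma-voom and DESeq2 called none. Npy was at 14.2, 15.2, 14.9, 16.2 and 16.4 CPM in the 5 labelled knockout libraries, close to one another and above 8 of the 10 fasted controls throughout. Its log2 fold change was 0.33 ± 0.10 (adjusted p = 0.531, edgeR). Pcsk1 was at 38.4, 43.0, 41.7, 44.7 and 37.7 CPM, with a log2 fold change of 0.13 (0.00 to 0.26, adjusted p = 0.817).

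Which control set served as the reference changed these mutant comparisons. Over controls 6 to 10, the labelled knockout showed higher Npy (0.53 ± 0.10, adjusted p = 0.00874) and Npy1r (0.44 ± 0.09, adjusted p = 0.0139). Over controls 1 to 5, the same libraries gave 0.16 for Npy and -0.04 for Npy1r, neither of them called. Of all genes, 0.556% were called for the labelled knockout over the second set and 0.0113% over the first. S662D against controls 1 to 5, both fasted, showed lower Npy1r (-0.30 ± 0.09, adjusted p = 0.0264) and Pcsk1 (-0.28 ± 0.06, adjusted p = 0.00576). Against controls 6 to 10 these were 0.18 and -0.05, neither of them called; of all genes, 9.45% were called against the first set and 0.269% against the second. In the fed state Cartpt was lower in S662D than in controls 1 to 5 (-0.60, adjusted p = 0.0492) and gave -0.16 against controls 6 to 10, where the shares of all genes were 9.79% and 0.185%. The values of each mutant against the 2 sets share the mutant libraries.

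**Figure D4:**
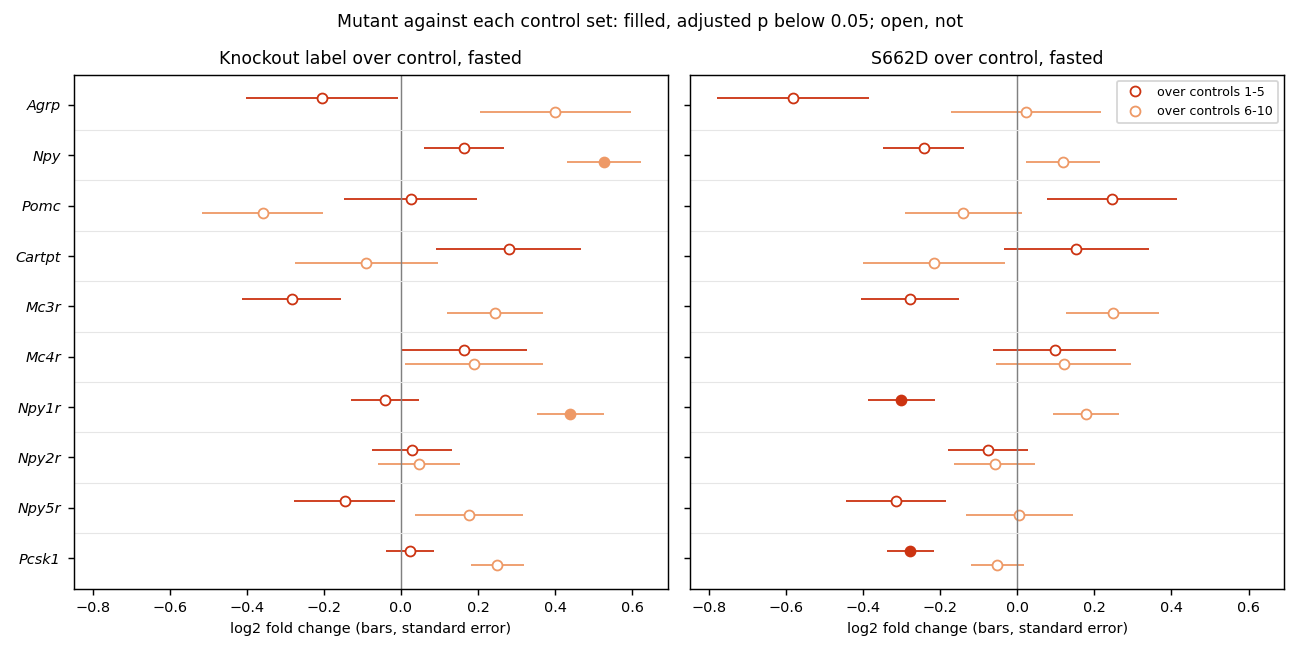
Log2 fold change (x axis; bars, standard error) of fasted labelled knockout (left) and fasted S662D (right) mice over fasted controls 1 to 5 (red) and 6 to 10 (orange) for each gene; filled points have an adjusted p below 0.05. Filled are Npy and Npy1r on the left over controls 6 to 10, and Npy1r and Pcsk1 on the right over controls 1 to 5.

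The mutants were also compared with each other in the fasted state. Npy and Pcsk1 were higher in the labelled knockout than in S662D, 2 of 10 genes against 7.34% of all genes tested, with 2.61% called higher. Pcsk1 in fasted S662D mice read 31.5, 35.5, 33.7, 33.4 and 32.8 CPM, all below the 5 labelled knockout values, a separation that held for 4.92% of genes. The log2 fold change was 0.30 ± 0.08 for Pcsk1 (adjusted p = 0.0107, edgeR) and 0.41 ± 0.11 for Npy (adjusted p = 0.0220, edgeR), the latter overlapping only through fasted S662D replicate 2. Using only the S662D libraries with the additional digit, Npy gave 0.32 (adjusted p = 0.105) and Pcsk1 0.26 (adjusted p = 0.0312). With only those without it the values were 0.54 (adjusted p = 0.114) and 0.35 (adjusted p = 0.150). With the additional digit as a term neither passed, at 0.46 for Npy (adjusted p = 0.154) and 0.30 for Pcsk1 (adjusted p = 0.153). Without labelled knockout 4 or 5, or without S662D replicate 4, the Npy call was lost. Other markers moved with these groups: endothelial genes summed to 80.81 to 97.69 CPM in the labelled knockout and 97.1 to 143.4 CPM in fasted S662D libraries, and 4 thalamic genes to 562.7 to 701.4 and 684 to 806.7 CPM. The 9 pituitary genes summed to 4.398 to 6.079 CPM in the labelled knockout and to 2.172 to 6.301 CPM, with a median of 2.46, in fasted S662D. Their part was not tested.

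Genes that act around these peptides were read from lists of related genes. Of 6 genes for peptide processing (Pcsk2, Cpe, Pam, Scg5, Pcsk1n and Prcp), none passed for fasting in controls, with log2 fold changes from -0.06 to 0.04; 0 had an unadjusted p below 0.05. Of 9 genes that modify melanocortin signalling, 5 were expressed enough to test and none passed. Of 15 regulators of these neurons, Foxo1, a transcription factor that insulin signalling holds out of the nucleus, rose by 0.34 (adjusted p = 0.00313, edgeR). Socs3, an inhibitor of leptin signalling, was lower, at -0.49 (adjusted p = 0.0229, edgeR). No other regulator was called there, where 3.88% of all genes tested were. In controls 1 to 5, Foxo1, Insr, Sim1, Socs3 and Ntrk2 were called, 4 higher and 1 lower, against 8.28% of all genes. In controls 6 to 10 only Sim1 and Otp were called, both lower, against 3.04% of all genes. Foxo1 and Socs3 were thus not called in controls 6 to 10. Between fasted control sets Bdnf, Sim1, Ntrk2 and Otp were called lower in set 6 to 10, against 6.02% of all genes called. The difference in response between the sets was called for Sim1, Ntrk2 and Otp, against 10.6% of all genes. In S662D mice Tbx3, a transcription factor of arcuate neurons, was lower on fasting (-0.53, adjusted p = 0.00190, edgeR), against 2.64% of all genes called. Tbx3 was also called higher in fed S662D than in fed control mice, where 4.69% of all genes were called. All genes called there fell from 847 to 23 with the additional digit as a term and to 33 against controls 6 to 10 alone. The values of Tbx3 in those settings are not given here. Between fasted S662D and control mice Tbx3 was not called.

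Some accessory genes of melanocortin signalling were higher in S662D than in control mice. In fed S662D mice 3 of the 5 tested were higher than in controls: Atrn (0.20), the attractin gene, its relative Atrnl1 (0.23), and Sdc3 (0.22), a syndecan that presents AGRP. Over all genes, 3.12% were called higher in the fed and 3.35% in the fasted comparison. In fasted S662D mice Sdc3 (0.18), Atrnl1 (0.20) and Mgrn1 (0.14), a ubiquitin ligase gene, were higher, as was Pcsk1n (0.26), which encodes an inhibitor of the Pcsk1 convertase. The median over the 5 was 0.20 fed and 0.14 fasted, against -0.01 and -0.0034 over all genes. Endothelial markers moved with genotype as well: Cldn5, Flt1 and Pecam1 summed to 101.7 to 124.1 CPM in fed control and 117 to 145.1 CPM in fed S662D libraries, and their part was not tested. With the additional digit as a term, all genes called fell from 847 to 23 in the fed and from 1007 to 20 in the fasted comparison. None of these genes then passed: fed, Atrn gave 0.07, Atrnl1 0.08 and Sdc3 0.13 (adjusted p = 0.840, 0.844 and 0.575), and fasted, Sdc3 gave 0.09, Atrnl1 0.06, Mgrn1 0.04 and Pcsk1n 0.21 (adjusted p = 0.701, 0.805, 0.834 and 0.512).

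Deviations of log2 CPM from the group mean, with the control sets as separate groups, were correlated over 35 libraries, and 4 pairs chosen by name were tested. Agrp and Npy, both made by AGRP neurons, gave a Pearson r of 0.536 (permutation within groups, p = 0.00335, adjusted over 4 pairs 0.0134). Their Spearman rho was 0.582 (p = 0.00095, adjusted 0.0038). Leaving out the 2 libraries farthest from the median of Agrp gave r = 0.497. Within library ranges r was 0.276 in the 10 libraries of controls 1 to 5, 0.846 in controls 6 to 10 and 0.622 in S662D. Pomc and Cartpt gave r = 0.432 (p = 0.0370, adjusted 0.0740) and rho = 0.376 (p = 0.0447, adjusted 0.0894), and r = 0.376 without the 2 farthest libraries; it was 0.292, -0.213 and 0.806 within the same ranges. Agrp with Pomc gave r = -0.022 (p = 0.913, adjusted 0.913) and rho = 0.031 (p = 0.871), and Npy with Pomc r = 0.138 (p = 0.554, adjusted 0.739) and rho = 0.061 (p = 0.755). Among the untested pairs, r reached 0.547 for Npy with Cartpt, -0.452 for Pomc with Npy1r, 0.438 for Mc4r with Npy5r and 0.394 for Npy1r with Npy5r, given as descriptions.

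**Figure D5:**
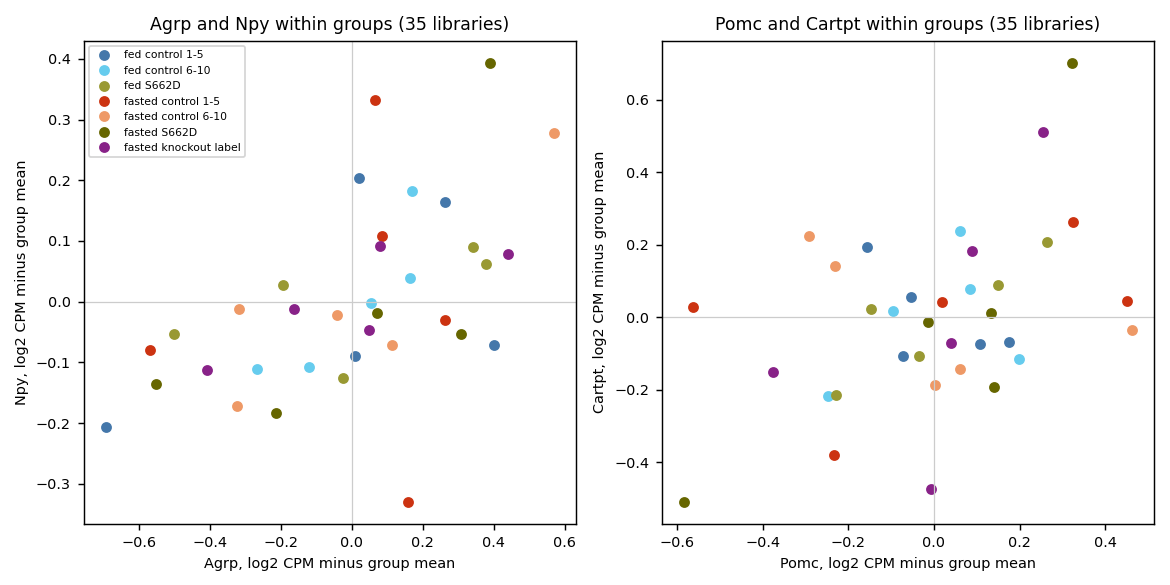
Deviation of each library (dots, 35 in each panel, coloured by group) from its group mean in log2 CPM, for Npy against Agrp (left) and Cartpt against Pomc (right). The left cloud slopes upward (r = 0.536), and in the right panel the lowest Pomc value and the highest Cartpt value both belong to fasted S662D libraries.

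Among the 15478 genes averaging 1 CPM or more, the profiles most like Agrp in these deviations were those of Ciz1 (r = 0.72), Rap2b (0.605) and Slc7a6 (0.603), and Npy ranked 10. Those most like Npy were Fibin (0.645), Galnt18 (0.633) and Tsc22d4 (0.622), and Agrp ranked 42. Those most like Pomc were Caml (0.777), Gmpr2 (0.775) and Tmem119 (0.74). These are descriptions over 35 libraries that share depth and dissection. Ghrh, made by other arcuate neurons, averaged 2.21 CPM and gave r = 0.01 with Agrp, 0.127 with Npy and 0.101 with Pomc. Of the 4 listed markers of other arcuate neurons, Ghrh alone was read in this way. Whether shared sampling of the arcuate nucleus links these genes was not tested.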

How the data were processed

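Count tables of 35 mouse hypothalamus libraries were used. The authors deposited raw counts per gene and a Length column, another unit, which gives exon bases. Per the submitters' processing notes, reads were aligned with STAR 2.7.10b to mm10 and counted with featureCounts 2.0.1 of Subread. Per the file headers, fragments were counted by gene name on GENCODE vM12 with multi-mapping reads kept and no strand option, so near-identical copies can share reads, and fragments on overlapping genes count for none. No row lacked a gene name.

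Groups followed the sample titles, and controls were also split by replicate number, 1 to 5 and 6 to 10. Genes passing filterByExpr (18063, minimum count 10) were fitted with edgeR 4.0.16 (R 4.3.3; TMM, robust quasi-likelihood) in 1 model with 5 groups, or 7 groups for the control sets. P-values were Benjamini-Hochberg adjusted over all genes tested and called below 0.05. Standard errors and 95% confidence intervals came from the quasi-likelihood F statistic. Printed log2 fold changes are the fitted values; CPM are TMM-scaled. Pearson and Spearman correlations used 100000 permutations within groups. Limma 3.58.1 (voom), DESeq2 1.42.0 and other settings were alternatives. No library pair of a group agreed within counting noise (lowest chi-square per degree of freedom 2.528 over 120 pairs).

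Members and lists were chosen by name, with earlier results of these data known. Named outside the members are, by rule, genes of the pathway lists that were called or describe a list, the 3 genes most alike to Agrp, Npy and Pomc, the fasting check genes, Per2 and genes that overlap Agrp. Marker genes are named to describe other tissue, and those called between control sets were picked after their values were seen. The alternative without the 5 libraries high in choroid plexus genes was chosen after seeing the data. For 1 marker list the summed level is not reported here.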

Additional observations from a re-analysis of the deposited data

Results flagged for a closer look

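In 4 of 50 sets of libraries (10 genes in 5 groups), 1 library lay far from the rest of its group; chance gives about 1 in 20. Npy in fasted S662D replicate 2 was at 15.12 CPM, where the next value was 11.33. Npy1r in fasted control 5 was at 27.28 CPM, where the next was 21.43. Npy2r in fasted control 10 was at 9.26 CPM, where the next was 11.88. Npy5r in fed S662D replicate 4 was at 5.2 CPM, where the next was 4.12.

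The fasting response differed between control replicates 6 to 10 and 1 to 5 for 4 genes, by the test of the difference itself (edgeR). For Npy1r the difference was -0.75 (-0.19 against 0.56), for Mc3r -0.63 (-0.34 against 0.3), for Pcsk1 -0.32 (0.03 against 0.36) and for Cartpt 0.81 (0.33 against -0.47), all on the log2 scale. The sets are defined by replicate number and match the library ranges. When 1 of the 20 control libraries was left out, Npy1r stayed called in all 20 fits and Mc3r in 19, the exception being without fasted control 5. Pcsk1 stayed called in 16, lost without fed controls 3 or 9 and fasted controls 5 or 9. Cartpt stayed called in 14, lost without fed controls 1, 3 or 9 and fasted controls 5, 9 or 10.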

How the results depend on the processing

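No fold change of a gene called in the main edgeR fits turned its sign under the settings run. Npy1r, called with 1 control set alone, did turn with the other set. For fasting in controls it was 0.55 with controls 1 to 5 alone, where it was called, and -0.19 with controls 6 to 10 alone. For fasted S662D against control it was -0.30 (called) and 0.18. For the labelled knockout against control it was -0.04 and 0.44 (called). The number of the 10 genes called moved by more than 1.5 times, or to or from 0, as follows. For fasting in controls it was 1 with controls 6 to 10 alone. For fasting in S662D it was 0 with only the groups compared, 0 with the replicate block and 0 without the digit-bearing libraries. For the difference of these responses it was 1 with controls 1 to 5 alone. For S662D against control it was 1 fed with controls 1 to 5 alone, and fasted 1 with no scaling, 2 with controls 1 to 5 alone and 1 without the libraries high in choroid plexus genes. The labelled knockout gave 2 against controls 6 to 10 alone, and against S662D 0 without the digit, 1 with it and 0 with the digit as a term. Between fed control sets it was 1 with only the groups compared, and between fasted sets 0 without the libraries high in choroid plexus genes. Fasting in controls 6 to 10 gave 2 with the replicate block, and the difference between the sets 2 without the libraries high in choroid plexus genes. The cause was not tested. Smaller moves were 3 for fasting in controls with no filter and by limma-voom, 5 between fasted sets by DESeq2 and with only the groups compared (Agrp gained), 5 in controls 1 to 5 by limma-voom and with only the groups compared (Cartpt gained), and 3 with no filter and 5 by DESeq2 (Npy5r gained) for the difference between the sets.

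Leaving out 1 library at a time gave 2 to 4 genes for fasting in controls, 0 to 2 in S662D, 4 to 5 in controls 1 to 5, 0 to 1 in controls 6 to 10 and 1 to 5 for their difference. It gave 0 to 0 for the difference between genotypes, 0 to 0 for fed and 0 to 1 for fasted S662D against control, 0 to 0 for the labelled knockout against control and 1 to 2 against S662D, and 0 to 0 between fed and 2 to 5 between fasted control sets. Between fasted sets Npy1r was called in 10 of 10 such fits, Mc3r in 9 (lost without fasted control 5), Pcsk1 in 4 and Npy in 3. In controls 6 to 10, Npy2r was lost without fed control 9 or fasted control 10.

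With the replicate block, fasting in controls gave 3 genes, losing Pcsk1, controls 1 to 5 gave 5 and the difference of responses between genotypes 0. Same-numbered fed and fasted libraries did not deviate together (correlations from -0.128 to 0.087; own number best for 1 of 10 control and 2 of 5 S662D libraries). No pairing was seen by this measure, which cannot exclude another link between libraries of the same number.

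Over all genes, only the groups compared changed the calls from 476 to 279 (fasting in S662D), 1007 to 291 (fasted S662D against control), 1325 to 476 (labelled knockout against S662D), 5 to 3 (labelled knockout against control), 0 to 469 and 1088 to 1862 (fed and fasted sets), 1496 to 2536 and 549 to 1137 (fasting in each set) and 1918 to 2956 (their difference). Controls 1 to 5 and 6 to 10 alone gave 1315 and 304 for fasting in place of 701, 1741 and 33 for fed S662D in place of 847, 1680 and 48 for fasted S662D, and 2 and 99 for the labelled knockout; the difference between genotypes had 486 with the first set. S662D libraries with and without the digit gave 3106 and 16 fed, 3148 and 21 fasted, and 2986 and 26 for the labelled knockout against S662D, which had 42 with the digit as a term; fasting in S662D had 7 without the digit, and the difference between genotypes 9 with it. DESeq2 gave 1426 for fed S662D, 97 for fed sets and 838 for fasting in controls 6 to 10. No filter gave 685 between fasted sets and 2 between fed sets, which also had 2 with no scaling. Without the libraries high in choroid plexus genes the counts were 241 for fasting in S662D, 352 for fed S662D, 196 for fasting in controls 6 to 10 and 946 for the difference between the sets. Agrp, at 31 to 156 counts, is the member whose precision depth limits most among the peptides.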
